A study of Mus musculus with 29 samples.

Results

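The net state of melanoma cells that had received interferon gamma (IFNγ) and then transforming growth factor beta (TGFβ) was set against that of cells kept in medium throughout. The comparison used 8 of the 29 mRNA libraries of the series, chosen by the 2 stimuli in their labels, and asks how far the cells stood from naive cells after the whole sequence. All groups share the cell line NMM, a mouse melanoma line that carries mutant NRAS, and the same culture medium with fetal calf serum. In the first group, cells received 100 ng/ml IFNγ for 2, 6, 12 or 24 h, were washed 5 times in PBS and were then held in 10 ng/ml TGFβ for 24 h (n = 4, 1 library for each duration of the first step). In the second group, both steps were medium without cytokine, with the same durations (n = 4). Libraries of 3 other sequences, 4 each, served for side-by-side values: medium then TGFβ, called TGFβ alone, IFNγ then medium, called IFNγ withdrawn, and TGFβ then IFNγ. Within a sequence the durations take the place of replicates. Separate cultures are not named in the labels. In the main model a p-value is set against the scatter of all 29 libraries around their group and duration. That scatter may be technical, and it also holds any effect of duration that differs between sequences.

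Library totals ran from 17179530 to 23668015 counts, and 14935 genes were tested. The 6 h medium library stood apart from the other medium libraries, with a chi-square per degree of freedom of 59 to 66.2 against each of them, while those 3 differed from one another by 3.96 to 5.94. Its share of mitochondrially encoded transcripts was 1.24%, against 0.841% to 0.868% in the other medium libraries and 0.977% to 1.25% after IFNγ and TGFβ. Values are therefore also given without it. Melanocyte lineage markers differed widely in level. Sox10 reached at most 0.135 CPM (counts scaled to a common library size) after IFNγ and TGFβ and was at 0 in medium, and Pmel lay at 0.156 to 0.27 CPM and at 0.166 to 0.444 CPM in the same order of groups. The melanocyte regulator Mitf was detected, at 8.61 to 11.8 CPM after IFNγ and TGFβ and at 12.6 to 15.3 CPM in medium, and so was the melanosomal Gpnmb, at 78.1 to 146 CPM after IFNγ and TGFβ and at 151 to 275 CPM in medium. Tyr, Tyrp1, Dct and Mlana were not analysed here. The leukocyte antigen gene Ptprc reached at most 0.0528 CPM after IFNγ and TGFβ and 0.0578 CPM in medium. In such bulk samples, fewer cells that express a gene and less RNA per cell cannot be told apart.

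TGFβ binds a receptor kinase pair whose SMAD proteins enter the nucleus and switch on genes of matrix, adhesion and feedback control, and in epithelial and melanocytic tumours it is known for driving invasive states. IFNγ, released by T cells, acts through JAK kinases and raises antigen presentation, guanylate-binding GTPases, T cell attracting chemokines and the inhibitory ligand PD-L1. Many of the same genes are also kept at a resting level by type I interferon, through a STAT complex that binds the interferon-stimulated response element.

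After IFNγ and then TGFβ the highest rises over medium included the metalloproteinase Mmp12, the matrix protein Fbln2 and the integrin chain Itga2. The deepest falls included the peptidase Cpm, the lipid carrier Apod and the lubricin gene Prg4. The Prg4 fall was -3.74 in log2, and -1.93 without the 6 h medium library. By edgeR's quasi-likelihood test with Benjamini-Hochberg adjustment, 3012 of 14935 genes differed at an adjusted p below 0.05 (20.2%), 1593 higher (10.7%) and 1419 lower (9.5%). Most changes were small, with a median absolute log2 fold change of 0.39 among those genes, and 474 reached a log2 fold change of at least 1 in size, 211 of them higher and 263 lower. In CPM, the 4 values of the groups did not overlap for 2501 genes (16.7%), 1307 higher and 1194 lower. Without the 6 h medium library 2563 of 14907 genes passed (17.2%), 1383 higher (9.28%) and 1180 lower (7.92%), of which 2129 also passed with it, all 2129 in the same direction. The number was 1553 without duration as a term of the model, and 683 when the model was fitted to these 8 libraries alone. Of the 105 genes the naming rule gives, 86 passed, and of these 22 did not pass without the duration term. On the 8 libraries alone 35 lost their call, among 103 that could be tested. Of the most changed genes these were Ackr3 (adjusted p = 0.069), Rpl17-ps4 (0.354), Prg4 (0.0522), Sod3 (0.086) and Cyfip2 (0.0873). For the gene lists that follow, a percentage in brackets is the share of tested members that passed in either direction, to be read against the 20.2% of all genes.

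The genes named first are the 12 highest and 12 lowest log2 fold changes among those that passed with 1 sign at all 4 durations and a mean of at least 5 CPM. The highest was Mmp12. It encodes macrophage elastase, a secreted metalloproteinase, and lies at chr9:7344381-7369499 (GRCm38). Its level after IFNγ for 2, 6, 12 and 24 h and then TGFβ was 17.5, 21.6, 21.8 and 41.4 CPM, against 1.51, 4.8, 1.28 and 1.27 CPM in the medium libraries of the same durations. All values after the 2 cytokines were above all values in medium, with the highest after the 24 h pulse. The log2 fold change was 3.53 (SE 0.318, adjusted p = 6.08e-08), and 4.17 without the 6 h medium library. Fbln2 (chr6:91212455-91272540), which encodes the basement membrane protein fibulin 2, lay at 109, 108, 112 and 107 CPM after IFNγ and TGFβ, against 26.2, 18.7, 25.7 and 27 CPM in medium (log2 fold change 2.17, SE 0.192, adjusted p = 5.26e-08). Its 4 values after the cytokines were nearly equal whatever the length of the pulse. Itga2 (chr13:114833081-114932100), the collagen-binding integrin alpha 2, lay at 88.5, 77.3, 123 and 93.6 CPM after IFNγ and TGFβ, against 26.1, 4.97, 29.4 and 33.4 CPM in medium (log2 fold change 2.08, SE 0.287, adjusted p = 1.80e-05). The 6 h medium value was the lowest there, and the groups stayed apart without it, at 1.76.

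Others of the 12 highest were Ggct, an enzyme of glutathione turnover (2.44), Ccbe1, a secreted factor of lymphatic growth (2.10), the G protein subunit Gng11 (2.05), the actin regulator Nckap1l, mostly known from blood cells (1.99), the scaffold protein whirlin, Whrn (1.91), the Notch ligand Jag1 (1.72), the chemokine scavenger receptor Ackr3 (1.72) and the ribosomal protein pseudogene Rpl17-ps4 (2.32). The Jag1 level was 114, 129, 149 and 195 CPM after pulses of 2, 6, 12 and 24 h and TGFβ, against 41.6 to 43.9 CPM in the 4 medium libraries. The Rpl17-ps4 value rested on 1 library, at 119 CPM after the 2 h pulse while the other 3 lay at 4.24 to 4.68 CPM and medium at 3.11 to 3.88 CPM. Without that library its log2 fold change was 0.59 and did not pass (adjusted p = 0.514), nor did it without the 2 h medium library (1.67, adjusted p = 0.151). Reads of such a pseudogene may come from the parent gene.

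**Figure D1:**
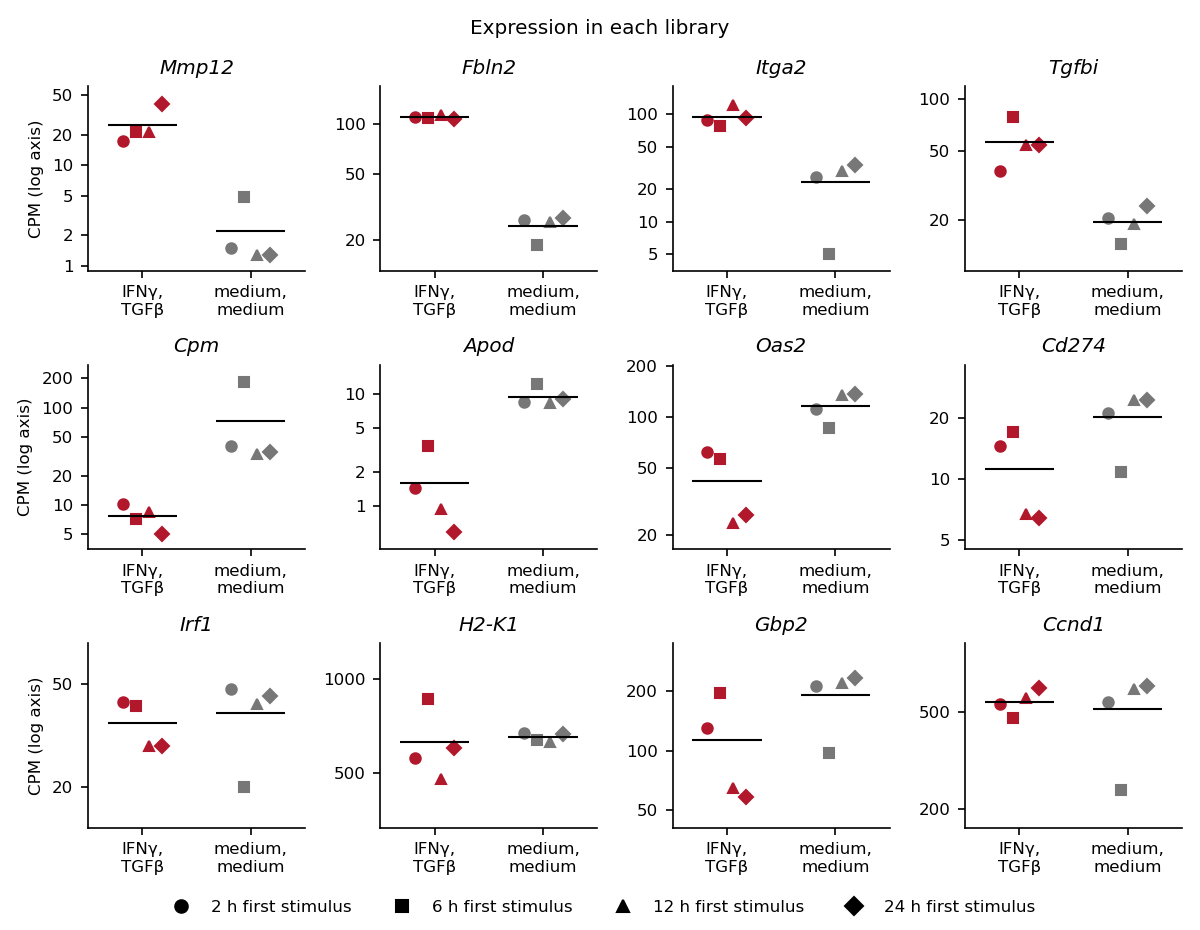
Level of 12 genes in CPM (log axis) in the 4 libraries of IFNγ then TGFβ (left, red) and the 4 of medium then medium (right, grey); the symbol gives the duration of the first step and the line the group mean. Mmp12, Fbln2, Itga2 and Tgfbi lie higher and Cpm, Apod and Oas2 lower after the 2 cytokines with no overlap, while Cd274, Irf1, H2-K1, Gbp2 and Ccnd1 overlap.

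Of the lowered genes, Cpm (chr10:117629500-117687352), which encodes the membrane peptidase carboxypeptidase M, lay at 10.1, 7.13, 8.53 and 5 CPM after IFNγ and TGFβ, against 40.3, 185, 33.2 and 35 CPM in medium. The fall came to -3.00 in log2 fold change, with an SE of 0.396 and an adjusted p of 1.07e-05. The 6 h medium library was far above the other 3, and without it the fall was -2.38. Apod (chr16:31296192-31314808), the lipid carrier apolipoprotein D, lay at 1.44, 3.43, 0.936 and 0.586 CPM after IFNγ and TGFβ, against 8.5, 12.3, 8.29 and 9.03 CPM in medium, and fell by 2.86 (SE 0.478, adjusted p = 0.000168). Here all 4 medium values were alike and above all values after the cytokines. The other 10 of the 12 lowest were Prg4, the joint lubricant lubricin (-3.74), the water channel Aqp5 (-2.86), the prostaglandin F receptor Ptgfr (-2.28), extracellular superoxide dismutase, Sod3 (-2.19), the actin regulator Cyfip2 (-2.12), the selenium carrier Selenop (-2.10), the copper-carrying ferroxidase ceruloplasmin, Cp (-2.09), the cyclic nucleotide phosphodiesterases Pde8b (-2.07) and Pde3a (-1.95), and the scavenger receptor Scara5 (-1.96).

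The 6 h medium library carried part of these low values. Without it the log2 fold change was -1.93 for Prg4, -1.99 for Aqp5, -1.23 for Sod3, -1.25 for Cyfip2 and -1.48 for Selenop, and all 24 genes with the highest or lowest changes still passed the test in the same direction. Prg4 itself lay at 0.836, 1, 0.416 and 0.225 CPM after IFNγ and TGFβ, against 2.06, 51, 1.58 and 2.21 CPM in medium. The 6 h medium value was more extreme than any other, but the groups did not overlap among the other libraries either. All other Prg4 values lay below 5 CPM, so the gene met the mean of 5 CPM through that library alone. Sod3 (51.8 CPM there, 4.14 to 6.12 CPM in the other medium libraries) and Aqp5 (36.2 and 4.44 to 7.54 CPM) also owed much of their mean to it.

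**Figure D2:**
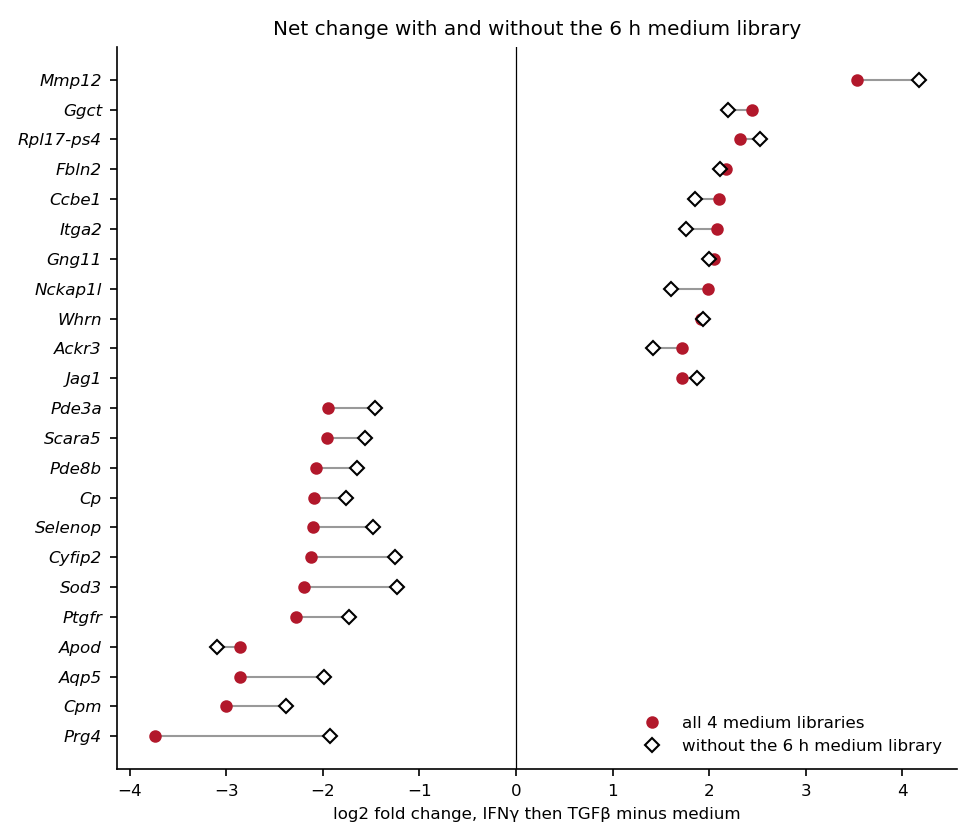
Log2 fold change of IFNγ then TGFβ over medium for 11 of the 12 highest and the 12 lowest genes, with all 4 medium libraries (filled circles) and without the 6 h medium library (open diamonds). All 23 genes shown keep their side of 0, and Prg4, Sod3, Cyfip2 and Aqp5 move most, to -1.93, -1.23, -1.25 and -1.99.

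Among the parts of the TGFβ pathway itself, 2 of 24 tested ligands, receptors and SMADs rose and 8 fell (41.7%). Of the ligands, Bmp4, a bone morphogenetic protein that signals through other SMADs, lay at 5.81, 6.97, 7.85 and 4.96 CPM after IFNγ and TGFβ, against 11.5 to 12.5 CPM in medium (log2 fold change -0.91, SE 0.119, adjusted p = 1.02e-05). Tgfb3 fell by 0.29, and Tgfb1, at 0.04, did not pass. Of the receptors, the co-receptor betaglycan, Tgfbr3, lay at 45.5, 49.7, 38.5 and 29.1 CPM after IFNγ and TGFβ, against 70.3, 150, 71.1 and 65.1 CPM in medium, and fell by 1.09 (SE 0.126, adjusted p = 2.23e-06). The signalling receptors Tgfbr1 and Tgfbr2 fell by 0.26 and 0.24, but did not pass without the 6 h medium library (-0.13 and -0.12). The latent TGFβ binding proteins went different ways, as Ltbp1 fell by 0.43 and Ltbp4 rose by 0.36. The median of the 24 genes was 0.01, and that of all tested genes 0.0006. Without the duration term there were 1 risen and 5 fallen genes, and on the 8 libraries alone 0 and 4. Without the 6 h medium library 5 rose and 5 fell, and 1 rose without the 2 h or 12 h medium library or the 2 h or 12 h library of IFNγ and TGFβ.

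Of 28 tested direct targets and feedback genes of TGFβ, 11 rose after the sequence and 4 fell (53.6%), and on the 8 libraries alone 9 rose and 2 fell. Tgfbi (chr13:56609523-56639562), a secreted matrix adaptor named for its induction by TGFβ, lay at 38.5, 79.1, 54 and 54.4 CPM after IFNγ and TGFβ, against 20.6, 14.6, 19 and 24.2 CPM in medium, and rose by 1.46 (SE 0.184, adjusted p = 5.98e-06). The groups did not overlap. Ctla2a, a cysteine protease inhibitor, rose by 3.10 (4.62 ± 0.981 CPM after IFNγ and TGFβ, 0.528 ± 0.202 CPM in medium, SD, n = 4 each, as for all ± values here), and the growth factor-like matrix protein Ccn2 by 2.13 (2.8 ± 1.89 CPM after IFNγ and TGFβ, 0.6 ± 0.368 CPM in medium). Both lay at few counts, which limits the precision of their fold changes, and Ccn2 did not pass without the duration term (2.21, adjusted p = 0.0605).

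Feedback inhibitors in the list moved in both directions. Smad7, which blocks the receptor, lay at 54, 50.1, 61 and 64.7 CPM after IFNγ and TGFβ, against 37.4 to 41.4 CPM in medium, and rose by 0.55 (SE 0.114, adjusted p = 0.00138). Pmepa1, which holds SMADs back, rose by 0.80, and Spsb1, which marks the receptor for breakdown, by 1.10. The repressor Skil was at 231, 225, 212 and 187 CPM after IFNγ and TGFβ, against 180, 209, 193 and 182 CPM in medium, and its small rise of 0.16 overlapped between the groups. It did not pass without the 2 h medium library (0.11), nor without the 2, 6 or 12 h library of IFNγ and TGFβ (0.14 to 0.17), nor without the duration term (adjusted p = 0.23) or on the 8 libraries alone (adjusted p = 0.266). Of the bone morphogenetic protein targets in the list, Id1 fell by 0.88, the inhibitory SMAD Smad6 by 0.62 and Id2 by 1.40. The Id2 value rested on the 6 h medium library, at 27 CPM where the others lay at 3.1 to 4.48 CPM, and without it the change of -0.47 did not pass (adjusted p = 0.064). The median of the 28 genes was 0.11, and 0.18, 0.04, 0.16 and 0.20 after pulses of 2, 6, 12 and 24 h.

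Matrix genes moved in both directions. Of 40 tested collagens, glycoproteins and matrix enzymes, 4 rose and 9 fell (32.5%), with a median of -0.14. Without the duration term 2 rose and 8 fell, and on the 8 libraries alone 1 rose and 3 fell, Mmp9 and Col3a1 not among them. The metalloproteinase Mmp9 rose with Mmp12 (0.898 ± 0.307 CPM after IFNγ and TGFβ, 0.279 ± 0.167 CPM in medium, log2 fold change 1.69). Fibronectin, Fn1, lay at 10525, 7864, 11412 and 8564 CPM after IFNγ and TGFβ, against 5962, 10285, 6270 and 5901 CPM in medium. With the 6 h medium library its log2 fold change of 0.42 did not pass (adjusted p = 0.117), and without it the change of 0.72 did (adjusted p = 0.00143). The fibrillar collagen Col3a1 stood at 404, 392, 377 and 491 CPM after IFNγ and TGFβ, against 544, 1461, 483 and 481 CPM in medium. Its fall of -0.78 (adjusted p = 0.0274) did not pass without that library (-0.27, adjusted p = 0.264), nor without the 2, 6 or 12 h library of IFNγ and TGFβ (-0.79, -0.67 and -0.75). Thbs2, a matricellular thrombospondin, fell by 1.02 and by 0.76 without the 6 h medium library. Without it 9 genes of the list rose and 6 fell, while 2 rose without the 12 h library of IFNγ and TGFβ and 2 without the 24 h medium library.

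Integrins and regulators of epithelial-mesenchymal transition changed in most cases, in both directions: 10 of 25 tested genes rose and 8 fell (72%), with a median of 0.03. On the 8 libraries alone 8 rose and 3 fell. Itgb3, the beta chain of the vitronectin receptor, lay at 153, 143, 153 and 146 CPM after IFNγ and TGFβ, against 68, 62.7, 75.9 and 75.2 CPM in medium (log2 fold change 1.08, SE 0.0675, adjusted p = 2.53e-10). The 2 groups were wide apart and tight within, and the 6 h medium value lay close to the others. Of the other integrin chains, Itga5 rose by 0.70, Itgb1 by 0.47 and Itgav by 0.27, whereas Itga1 fell by 1.12 and Itga4 by 1.44. Tnnt2, a troponin of the cardiac sarcomere, was at 461 ± 62.9 CPM after IFNγ and TGFβ and 152 ± 8.53 CPM in medium and rose by 1.60. The transcription factors split as well. Snai1, Zeb1 and the mesenchymal cadherin Cdh2 rose by 0.48, 0.39 and 0.41, and Snai2 and Twist1 fell by 0.57 and 0.52. The epithelial cadherin Cdh1 was near the floor in both groups, at 0.244 ± 0.031 CPM after IFNγ and TGFβ and 0.963 ± 0.337 CPM in medium, and fell by 1.92.

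**Figure D3:**
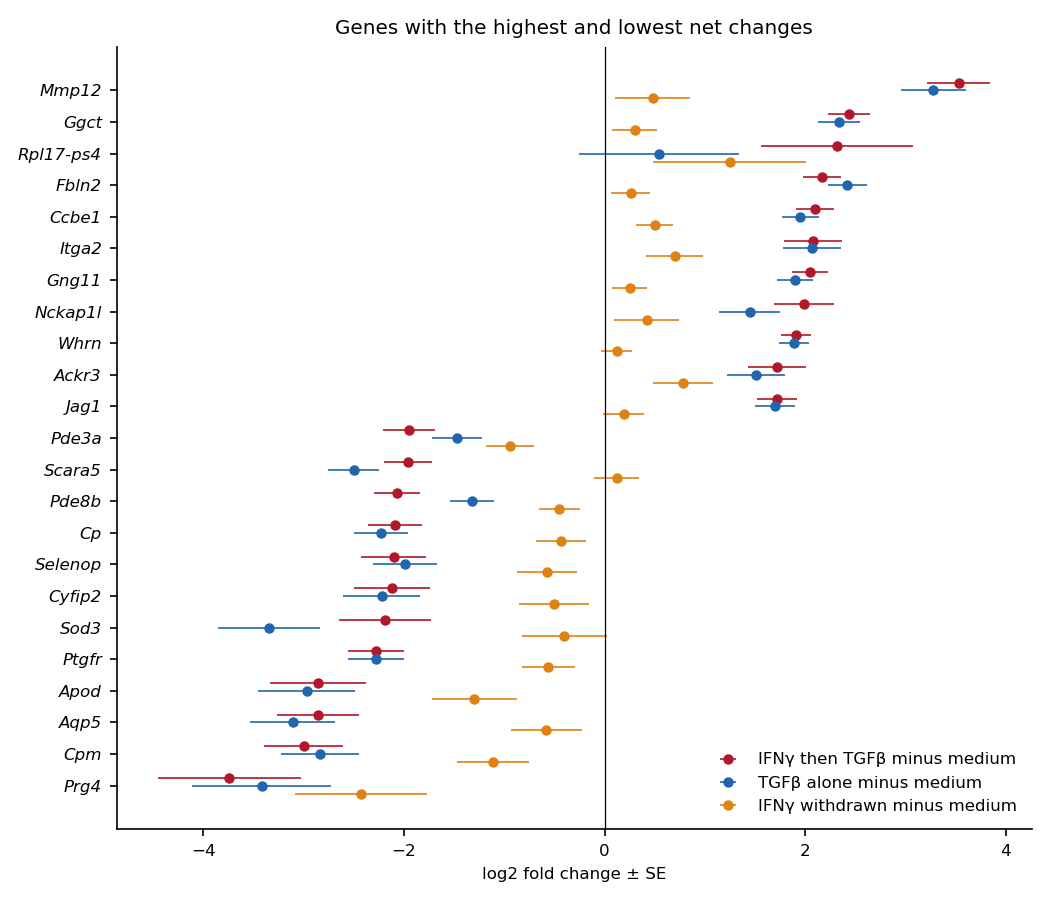
Log2 fold change over medium (± SE) of 11 of the 12 highest and the 12 lowest genes for IFNγ then TGFβ (red), TGFβ alone (blue) and IFNγ withdrawn (orange); all share the 4 medium libraries. Red and blue points lie furthest apart for Rpl17-ps4, Sod3 and Pde8b, and the orange point lies nearer to 0 than the red one for all 23 genes shown.

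The same genes were read side by side in cells given 1 cytokine only. These changes share the medium libraries and are given as each comparison's own values. Over medium, TGFβ alone passed the test in the same direction for 11 of the 12 highest genes and all 12 lowest. The exception was Rpl17-ps4. These genes were picked through the same medium libraries, which favours such calls. The share of all genes that passed for TGFβ alone is not given here. Its log2 fold changes were 3.28 for Mmp12, 2.42 for Fbln2, 2.07 for Itga2, -2.84 for Cpm and -2.97 for Apod. IFNγ withdrawn stood nearer to medium, at 0.48 for Mmp12, 0.26 for Fbln2, 0.70 for Itga2, -1.11 for Cpm and -1.30 for Apod, and these 5 did not pass. Tested against each other, the IFNγ-then-TGFβ libraries and those of IFNγ withdrawn differed in 1084 genes (7.26%), 541 higher (3.62%) and 543 lower (3.64%). Among these were 11 of the 12 highest and 10 of the 12 lowest. Those genes were picked by their values in the same IFNγ-then-TGFβ libraries, which favours such calls. Against IFNγ withdrawn, the highest differences by the same filters were Mmp12 (3.06), Ggct (2.14), Fbln2 (1.92), Tnnt2 (1.90) and Gng11 (1.80). The lowest were Scara5 (-2.08), Tinagl1, a matrix glycoprotein (-1.90), Cpm (-1.89), the surface protein Ly6a (-1.85) and Sod3 (-1.79). The number was 488 without the duration term and 3177 on the 8 libraries alone. It was 689 without the 6 h library of IFNγ and TGFβ, and 686 and 702 without the 12 h and 24 h libraries of IFNγ withdrawn.

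Set directly against TGFβ alone, IFNγ then TGFβ differed in 14 genes by the adjusted test (0.0937%), and in 1727 at an unadjusted p below 0.05. Few calls do not show that the states were alike. The highest list medians of this difference were 0.92 for IFNγ-inducible GTPases, 0.87 for MHC class I presentation and 0.57 for antiviral genes, with 0 members called. The lowest was -0.24, for amino acid stress. Of the 24 highest and lowest genes, 0 differed by edgeR or DESeq2, and 2 had an unadjusted p below 0.05. Those named by the same rule were the receptor Notch1 (0.66) and Arhgap31, a regulator of small GTPases (0.33), which were higher, and the secreted glycoprotein Stc2 (-0.62), the phosphatidylserine-binding annexin Anxa5 (-0.33), the G protein subunits Gnb1 (-0.31) and Gnas (-0.25) and the respiratory chain subunit Ndufb8 (-0.31), which were lower. Notch1 lay at 22, 29.1, 28.9 and 33.7 CPM after IFNγ and TGFβ, against 14.9, 16.8, 19.5 and 20.7 CPM after TGFβ alone, with no overlap (SE 0.097, adjusted p = 0.00973). In medium it lay at 22 to 26.8 CPM. Stc2 lay at 17.9, 11.7, 21 and 13.9 CPM after IFNγ and TGFβ, against 22.8, 23.8, 27.5 and 24.2 CPM after TGFβ alone, and at 11.6 to 22.1 CPM in medium. The Notch1 and Stc2 levels after the 2 cytokines thus overlapped with those of medium cells. The number of such genes depended on single libraries and on the tool. It ran from 0 to 45 when 1 library was left out, with 45, 0, 1 and 5 without the 2, 6, 12 and 24 h libraries of IFNγ and TGFβ, and 0, 2, 0 and 3 without those of TGFβ alone. DESeq2 gave 163, and the fit to the 8 libraries alone 73. It was 1 without the duration term.

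Few genes of the interferon response stood apart from medium after the sequence. Of 20 tested genes of the IFNγ receptor, JAK-STAT and IRF group, 1 passed the test (5%), Irf8, a transcription factor of myeloid cells, which rose by 0.59 (30.5, 28.1, 41.1 and 42.1 CPM after IFNγ and TGFβ, against 27.1, 13.4, 26.3 and 27.7 CPM in medium, adjusted p = 0.000878). Irf8 did not pass without the duration term (adjusted p = 0.0986) or on the 8 libraries alone (adjusted p = 0.0576). Irf1, an early transcription factor of the IFNγ response, lay at 42.4, 41, 28.7 and 28.9 CPM after IFNγ and TGFβ, against 47.6, 20, 41.6 and 44.7 CPM in medium. Apart from the 6 h medium library, its values after 12 and 24 h of IFNγ were the lowest of the 8. The log2 fold change of -0.15 did not pass (adjusted p = 0.738). Neither did those of the feedback inhibitors Socs1 (-0.33) and Usp18 (-0.89). Without the 2 h or the 12 h medium library 2 and 1 members of this group fell.

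Among the IFNγ-inducible GTPases, 1 of 18 passed (5.56%), Gbp8 (0.916 ± 0.316 CPM after IFNγ and TGFβ, 2.52 ± 0.119 CPM in medium, log2 fold change -1.47), while 17 of 18 had a change below 0. Gbp2, which acts against vacuolar pathogens, lay at 131, 197, 65 and 58.4 CPM after IFNγ and TGFβ, against 212, 97.9, 221 and 233 CPM in medium (log2 fold change -1.07, adjusted p = 0.24). It was lowest after the 12 h and 24 h pulses, and the groups overlapped at 6 h. The list's median was -0.86, and -0.63, 0.21, -1.41 and -1.10 for pulses of 2, 6, 12 and 24 h. Its mean relative to medium was -0.61, -0.17, -1.26 and -0.92 for IFNγ then TGFβ at these durations. For TGFβ alone, whose first step held no cytokine, it was -0.74, -1.03, -3.55 and -2.19. Gbp and Irg genes are alike in sequence, so their separate counts are uncertain. Without the 2 h or the 6 h medium library 2 members fell, and 3 on the 8 libraries alone.

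Of the 25 genes of MHC class I presentation, 0 passed by edgeR or by DESeq2, and 5 had an unadjusted p below 0.05, all lower. Of all 14935 genes, 4829 had such an unadjusted p by edgeR, which is a larger share. The heavy chain H2-K1 (chr17:33996017-34000347) lay at 560, 865, 479 and 603 CPM after IFNγ and TGFβ, against 670, 637, 631 and 667 CPM in medium, which made a log2 fold change of -0.12 with an SE of 0.308 (adjusted p = 0.841). The light chain B2m lay at 1298, 1642, 1194 and 1394 CPM after IFNγ and TGFβ, against 1495, 1824, 1383 and 1517 CPM in medium (-0.17, SE 0.256), and the peptide transporter Tap1 stood at -0.38. For both chains the groups overlapped, with the highest H2-K1 value after the 6 h pulse. Over the same medium libraries, TGFβ alone lowered H2-K1 by 1.23 and B2m by 0.93. In TGFβ alone H2-K1 lay at 494, 526, 135 and 159 CPM, and the direct difference of IFNγ then TGFβ from it, 1.11, did not pass (adjusted p = 0.145). The list's median was -0.30 for IFNγ then TGFβ, -1.23 for TGFβ alone and -0.06 for IFNγ withdrawn, each over medium. Without 1 medium library, that of 2 h or of 6 h, 1 and 2 members fell, and 3 on the 8 libraries alone.

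Among chemokines, 0 of 11 passed by edgeR, and 1 fell by DESeq2 and 1 on the 8 libraries alone. An unadjusted p below 0.05 by edgeR was found for 3 of them, and for 4829 of all 14935 genes. Cxcl10, which attracts activated T cells, lay at 93, 124, 27.6 and 21.3 CPM after IFNγ and TGFβ, against 155, 37.1, 186 and 198 CPM in medium. The log2 fold change of -1.73 (adjusted p = 0.0739) reached -2.23 without the 6 h medium library (adjusted p = 0.0135) and -2.07 without the 2 h one (adjusted p = 0.0406), and passed in both cases. Cxcl9 was near the floor in both groups, at 0.537 ± 0.49 CPM after IFNγ and TGFβ and 0.185 ± 0.144 CPM in medium, and Ccl2, a monocyte attractant, stood at -0.58 (adjusted p = 0.307). Without the 6 h or the 2 h medium library 2 and 1 of the chemokines fell.

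Of 11 tested T cell inhibitory ligands, 1 rose and 2 fell (27.3%), against 3 fallen by DESeq2, 0 without the duration term and 1 on the 8 libraries alone. Nt5e (chr9:88327197-88372092), the ectoenzyme CD73 that makes extracellular adenosine, lay at 217, 222, 209 and 186 CPM after IFNγ and TGFβ, against 88.9, 69.7, 90.2 and 87.6 CPM in medium, and rose by 1.30 (SE 0.0939, adjusted p = 2.16e-09). Every value after the cytokines was more than any value in medium, whatever the pulse. Lgals9, which encodes galectin 9, a ligand of the T cell surface protein TIM-3, lay at 51.7, 54.5, 21.2 and 24.7 CPM after IFNγ and TGFβ, against 98.1, 80.3, 92 and 99.4 CPM in medium (-1.56, SE 0.55, adjusted p = 0.047). That call was lost without the 12 h or the 24 h medium library (-1.28 and -1.23) and without any 1 of the 4 libraries of IFNγ and TGFβ (-1.48 to -1.63). It was also lost by DESeq2 (-1.62, adjusted p = 0.075) and without the duration term (-1.28, adjusted p = 0.293). Nectin2, a ligand of TIGIT, fell by 0.28, and did not pass without the duration term (adjusted p = 0.0523) or on the 8 libraries alone (adjusted p = 0.11). Cd274 (chr19:29367455-29388095), which encodes PD-L1, lay at 14.6, 17, 6.66 and 6.4 CPM after IFNγ and TGFβ, against 21.1, 10.8, 24.5 and 24.5 CPM in medium. Its log2 fold change of -1.05 did not pass (adjusted p = 0.0886), but did without the 6 h medium library (-1.37, adjusted p = 0.0224). In that case 5 members of the list fell, among them Cd47, against 1 without the 12 h or 24 h medium library or the 2, 12 or 24 h library of IFNγ and TGFβ, and 2 rose without the 24 h medium library.

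**Figure D4:**
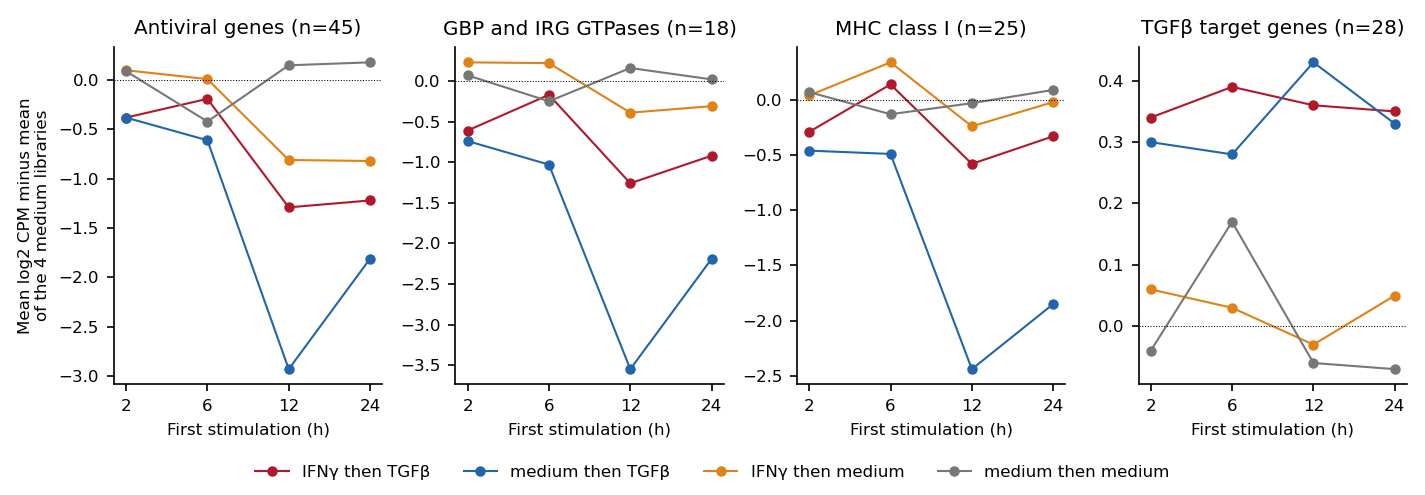
Mean log2 CPM of 4 gene lists in each library, relative to the mean of the 4 medium libraries, by duration of the first step (h), for IFNγ then TGFβ (red), TGFβ alone (blue), IFNγ withdrawn (orange) and medium (grey). The antiviral, GTPase and MHC class I lists are lowest in TGFβ alone at 12 h (-2.93, -3.55 and -2.44), where IFNγ then TGFβ lies between that and medium, and the TGFβ targets lie at 0.34 to 0.39 in all 4 red libraries.

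Antiviral genes, a group that type I interferon induces, were lower after the sequence in a few cases. Of 45 tested members 44 had a log2 fold change below 0, and 3 fell and 1 rose by the test (8.89%). With all medium libraries this share was below the 20.2% of all genes. By DESeq2 7 fell, and without the duration term 0. On the 8 libraries alone 6 fell, where 350 genes in all fell. In neither of these 2 edgeR fits did the risen one, Ifi27, pass. The list's median was -0.82, and by duration -0.41, 0.16, -1.33 and -1.29 for 2, 6, 12 and 24 h. Oas2 (chr5:120730333-120749853), which makes 2-5A to activate RNase L, lay at 62.3, 56.6, 23.7 and 26.4 CPM after IFNγ and TGFβ, against 112, 85.9, 135 and 136 CPM in medium (-1.86, SE 0.607, adjusted p = 0.0316). The 12 h and 24 h pulses gave the lowest values, and the groups did not overlap. The dynamin-like GTPase Mx1 fell by 1.69 and the translation inhibitor Ifit2 by 1.65, with overlap at 6 h in both. Mx1 did not pass without the 12 h or 24 h medium library (-1.28 and -1.38) or the 2, 12 or 24 h library of IFNγ and TGFβ (-1.64, -1.59 and -1.60), nor Ifit2 without the 12 h or 24 h medium library (-1.35 and -1.34) or the 24 h library of IFNγ and TGFβ (-1.51). Ifi27, an interferon-inducible gene, went the other way, at 13.8, 12.5, 27.9 and 25.5 CPM after IFNγ and TGFβ against 9.82 to 11 CPM in medium (0.82, adjusted p = 0.0096), a call lost without the 12 h medium library.

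The number of antiviral genes that fell rested on single libraries. It was 13 of 45 without the 6 h medium library, a share above the 7.92% of all genes that fell there. The number was 10 without the 2 h medium library and 1 without the 2 h or the 12 h library of IFNγ and TGFβ. It was 0 without the 24 h library of IFNγ and TGFβ or the 12 h or 24 h medium library. Oas2 did not pass without the 12 h or the 24 h medium library (-1.46 and -1.47) or without any 1 of the libraries of IFNγ and TGFβ (-1.79 to -1.94). Without the duration term Oas2 (-1.48, adjusted p = 0.26), Mx1 (-1.27, adjusted p = 0.28) and Ifit2 (-1.27, adjusted p = 0.193) did not pass, nor did they on the 8 libraries alone (adjusted p = 0.0543, 0.153 and 0.115). Per library, the list's mean relative to medium was -0.38, -0.19, -1.29 and -1.22 for IFNγ then TGFβ at 2, 6, 12 and 24 h, -0.38, -0.61, -2.93 and -1.81 for TGFβ alone, 0.10, 0.01, -0.81 and -0.82 for IFNγ withdrawn, and 0.09, -0.42, 0.15 and 0.18 for medium. In each of the 3 cytokine sequences the 12 h and 24 h libraries were lower than those of 2 and 6 h.

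Promoters are shown for 3 members of these lists, from RefSeq on GRCm38.p6, from 250 bases before to 50 after the start. Of these, Ifit1 did not pass the net test, and the Lgals9 call was lost under several settings. Ctla2a (chr13:60936576-60936875, minus strand) is the TGFβ target with the highest change, and the capitals mark its AP-1 site, searched as TGANTCA on both strands. Its matches to the SMAD half-site CAGAC and to the GAS motif TTCNNNGAA are left in lower case, as are the CAGAC matches of the Ifit1 promoter. Ifit1 (chr19:34640639-34640938, plus strand) and Lgals9 (chr11:78984875-78985174, minus strand) are an antiviral gene and an inhibitory ligand that were lowest after the long pulses, and the capitals mark their 2 matches each to the interferon-stimulated response element, searched as GAAA, any 2 bases and GAAA on both strands.
Ctla2a: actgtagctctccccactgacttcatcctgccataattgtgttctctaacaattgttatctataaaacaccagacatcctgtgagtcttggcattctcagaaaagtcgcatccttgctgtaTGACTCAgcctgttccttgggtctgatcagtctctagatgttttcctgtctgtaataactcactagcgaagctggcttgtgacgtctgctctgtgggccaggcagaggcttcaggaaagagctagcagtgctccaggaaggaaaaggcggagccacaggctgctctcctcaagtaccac
Ifit1: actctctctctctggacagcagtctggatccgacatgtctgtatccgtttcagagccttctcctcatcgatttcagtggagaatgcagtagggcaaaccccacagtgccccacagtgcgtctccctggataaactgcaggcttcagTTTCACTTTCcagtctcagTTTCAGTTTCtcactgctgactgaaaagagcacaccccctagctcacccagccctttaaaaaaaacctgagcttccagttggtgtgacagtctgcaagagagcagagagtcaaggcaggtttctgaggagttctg
Lgals9: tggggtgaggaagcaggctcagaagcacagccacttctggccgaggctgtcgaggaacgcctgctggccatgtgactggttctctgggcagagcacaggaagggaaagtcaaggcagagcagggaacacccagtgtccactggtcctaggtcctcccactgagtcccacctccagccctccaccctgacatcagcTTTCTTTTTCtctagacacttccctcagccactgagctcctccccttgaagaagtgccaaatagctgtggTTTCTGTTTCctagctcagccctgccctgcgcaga

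Ifit1 lay at 331, 439, 148 and 166 CPM after IFNγ and TGFβ, against 524, 437, 553 and 572 CPM in medium (-1.21, adjusted p = 0.051), and passed without the 6 h or the 2 h medium library (-1.46 and -1.43). A promoter was matched by symbol for 10069 of 14932 tested genes. The AP-1 motif was in 4.98% of them, in 14.4% of those raised by at least 1 on the log2 scale (20 of 139) and in 7.82% of those lowered by at least as much (14 of 179). It was in 5.56% of the TGFβ target promoters (1 of 18), near the share of all genes, and in 26.5% of the antiviral ones (9 of 34). The response element was in 3.15% of all, 0.719% of the raised, 5.59% of the lowered, 5.56% of the TGFβ targets and 55.9% of the antiviral promoters (19 of 34). The SMAD half-site CAGAC was in 47.3% of all, 48.2% of the raised, 50.8% of the lowered, 55.6% of the TGFβ targets and 50% of the antiviral promoters. A match describes these letters, not binding.

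Of 38 genes of the cell cycle 14 rose by small amounts (36.8%), against 2 without the duration term and 0 on the 8 libraries alone. Among the 14 were Ccne2, cyclin E2 (0.82), the transcription factor Mybl2 (0.71) and the replication licensing factor Cdc6 (0.58). This count followed the 6 h medium library, which was low for the list. Its mean there was -0.78 relative to the 4 medium libraries, against 0.21 to 0.28 in the other 3, and 0.31 to 0.46 after IFNγ and TGFβ. The list's median was 1.10 for the 6 h pair and 0.04, 0.09 and 0.14 for 2, 12 and 24 h, and without that library 6 genes rose. It was also 9, 3 and 5 without the 2, 6 and 24 h libraries of IFNγ and TGFβ. Cdc6 did not pass without the 6 h or 24 h medium library (0.32 and 0.58) or those 3 libraries (0.62, 0.52 and 0.55). The cyclin Ccnd1 lay at 540, 470, 567 and 623 CPM after IFNγ and TGFβ, against 550, 238, 618 and 637 CPM in medium, and did not pass (0.18, adjusted p = 0.36).

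Of 20 genes under MAPK control, the pathway that mutant NRAS drives, 3 rose and 2 fell (25%), a share close to that of all genes. Myc lay at 316, 246, 273 and 312 CPM after IFNγ and TGFβ, against 207, 84.8, 175 and 207 CPM in medium, and rose by 0.83 (SE 0.123, adjusted p = 4.67e-05). The ERK phosphatase Dusp5 rose by 1.03 (127 ± 18.3 CPM after IFNγ and TGFβ, 65.5 ± 26.7 CPM in medium). Its relative Dusp6, the usual readout of ERK activity, did not pass (-0.01, 333 ± 39.5 CPM after IFNγ and TGFβ, 336 ± 55.5 CPM in medium), and the feedback inhibitor Spry1 fell by 1.15, and by 1.05 on the 8 libraries alone, where it did not pass (adjusted p = 0.0935). Without the 6 h library of IFNγ and TGFβ 1 gene of the list fell.

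Of 27 genes of glycolysis and hypoxia 13 rose and 1 fell (51.9%), with a median of 0.30. Without the duration term 3 rose, and on the 8 libraries alone 4. The stress-responsive Ndrg1 lay at 79.9, 86, 114 and 109 CPM after IFNγ and TGFβ, against 58.5, 36.9, 54.6 and 61.2 CPM in medium (0.87, SE 0.148, adjusted p = 0.000215), and the oxygen sensor Egln3 rose by 0.65 and did not pass without the duration term (adjusted p = 0.13). Both were higher after the 12 h and 24 h pulses than after shorter ones. The list's mean relative to medium was 0.12, 0.15, 0.50 and 0.48 for IFNγ then TGFβ, and 0.26, 0.21, 0.56 and 0.59 for IFNγ withdrawn at the same durations. It was -0.05, -0.02, 0.56 and 0.42 for TGFβ alone, whose first step held no cytokine, and -0.01, -0.01, 0.38 and 0.15 for TGFβ then IFNγ. For medium it was 0.12, -0.15, -0.07 and 0.10. The part that the IFNγ pulse or the duration had in these values was not tested. The neuronal enolase Eno2 fell by 0.89, which did not pass on the 8 libraries alone (adjusted p = 0.0577). Of 23 genes of sterol and fatty acid synthesis 4 rose and 2 fell (26.1%), against 20.2% of all genes. Without the duration term 2 rose and 2 fell, and on the 8 libraries alone 1 rose and 0 fell. Fasn (0.43) was among the risen and Scd1 (-0.51) among the fallen. Scd1 did not pass without the 6 h medium library (-0.19) or the 6 h library of IFNγ and TGFβ (-0.43). Fasn did not pass without the 6 h or 24 h library of IFNγ and TGFβ (0.41 and 0.39) or the 12 h or 24 h medium library (0.45 and 0.31), nor without the duration term (adjusted p = 0.132). Leaving out the 2 h medium library gave 7 risen genes in this group.

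Of 19 p53 targets 8 fell and 1 rose (47.4%), and 5 and 3 fell without the duration term and on the 8 libraries alone. Plk2, a stress-induced kinase, lay at 33.4, 35.8, 18.9 and 21.9 CPM after IFNγ and TGFβ, against 62.6, 125, 47.2 and 45.2 CPM in medium (-1.29, SE 0.146, adjusted p = 1.59e-06), and Ddit4, an mTOR inhibitor, rose by 0.61. The p53 target Cdkn1a, the cell cycle inhibitor p21, is also a TGFβ target and fell by 0.41. Of 23 genes of amino acid stress and the unfolded protein response 4 fell (17.4%), and 22 had a change below 0. With all medium libraries the share that passed was below the 20.2% of all genes. The transcription factor Atf5 lay at 71.2, 51.1, 56.1 and 53.3 CPM after IFNγ and TGFβ, against 111, 157, 120 and 105 CPM in medium (-1.10, SE 0.11, adjusted p = 2.85e-07), and the cystine transporter chain Slc7a11 fell by 0.53. Slc7a11 did not pass without the duration term (-0.52, adjusted p = 0.389), on the 8 libraries alone (-0.52, adjusted p = 0.0833), or without both 6 h or both 24 h libraries (-0.47 and -0.41). The count of 4 was 6 by DESeq2, 1 without the duration term and 1 on the 8 libraries alone. It was 9 of 23 without the 6 h medium library, a share above the 7.92% of all genes that fell there. Without the 12 h or the 24 h medium library it was 2. Of 23 cell death genes 3 fell, the effector Bax (-0.44), the survival factor Bcl2l1 (-0.30) and the TNF receptor Tnfrsf1a (-0.25). Their share, 13%, was below that of all genes. On the 8 libraries alone Bax (adjusted p = 0.112) and Tnfrsf1a (adjusted p = 0.065) did not pass, and Bax did not without both 6 h libraries (-0.31, adjusted p = 0.0916).

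Among NF-kB subunits and targets 4 of 18 fell and 1 rose (27.8%), against 2 and 1 fallen without the duration term and on the 8 libraries alone. The adhesion molecule Vcam1, which binds the integrin that Itga4 forms, was near the floor, at 0.467 ± 0.173 CPM after IFNγ and TGFβ and 1.72 ± 0.244 CPM in medium, and fell by 1.84 (SE 0.298, adjusted p = 0.000127). The inhibitor Nfkbia fell by 0.35, and did not pass without the duration term (adjusted p = 0.0961) or on the 8 libraries alone (adjusted p = 0.059). The gene that rose, Sod2 (0.21), did not pass when any 1 of 4 libraries was left out, the 6 h or 24 h library of IFNγ and TGFβ and the 6 h or 12 h medium library.

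Of the melanocyte and neural crest genes, 9 of 21 were tested, and 2 rose and 4 fell (66.7%), against 2 and 1 fallen without the duration term and on the 8 libraries alone. Sox9, a neural crest transcription factor, lay at 102, 121, 107 and 103 CPM after IFNγ and TGFβ, against 71.7, 63.1, 64.3 and 68.4 CPM in medium, and rose by 0.69 (SE 0.122, adjusted p = 0.000282). Mitf fell by 0.44 (SE 0.0862, adjusted p = 0.000853), with no overlap. Gpnmb, a melanosomal glycoprotein, lay at 78.1, 106, 78.4 and 146 CPM after IFNγ and TGFβ, against 170, 275, 153 and 151 CPM in medium. Its fall of -0.83 (adjusted p = 0.0299) did not pass without the 6 h or 12 h medium library (-0.74 and -0.77) or without the 2, 6 or 12 h library of IFNγ and TGFβ (-0.67, -0.71 and -0.83). The nerve growth factor receptor Ngfr was near the floor, at 0.0713 ± 0.0768 CPM after IFNγ and TGFβ and 0.412 ± 0.391 CPM in medium. Its fall of -2.28 (adjusted p = 0.0431) was lost without the 6, 12 or 24 h medium library (-1.42, -2.38 and -2.41) and without the 2, 6 or 12 h library of IFNγ and TGFβ (-1.91, -1.98 and -2.19). The number of fallen genes in the list was 1 or 2 without the 6 or 12 h medium library or without the 2, 6 or 12 h library of IFNγ and TGFβ.

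Markers of other cell types were mostly at the floor, but the fibroblast markers Col3a1 and Dcn were not. Of 13 leukocyte markers 2 were tested, and Cd14, a lipopolysaccharide co-receptor, fell by 0.65 (26.8 to 47.8 CPM after IFNγ and TGFβ, 47.7 to 76.4 CPM in medium), a call lost without the duration term (adjusted p = 0.259). Itgax was at 0 in all 8 libraries. The summed level of the 10 fibroblast and endothelium markers was 522 to 684 CPM after IFNγ and TGFβ and 589 to 1950 CPM in medium, the top value in the 6 h library. Of these, 5 were tested, and 3 had a change below 0. Cdh5, an endothelial cadherin, rose by 1.00 and Pdgfra by 0.67, and Col3a1 fell, a call lost without the 6 h medium library. Dcn (100 to 155 CPM after IFNγ and TGFβ, 81.1 to 461 CPM in medium) and Pdgfrb (4.02 to 6.94 and 6.04 to 9.42 CPM) did not pass. The endothelial markers Kdr and Pecam1 reached at most 0 and 0.18 CPM. The summed level of the 13 leukocyte markers was 30.5 to 52.6 CPM after IFNγ and TGFβ and 52.8 to 82.2 CPM in medium, and that of the 6 keratinocyte and epithelial markers 1.98 to 3.3 CPM and 3.27 to 3.7 CPM in the same order of groups. Of these 6, Krt14 was at 0 and Cdh1 was the 1 of 3 tested that fell. The part of these markers in the results was not tested. Of 12 reference genes 2 rose (16.7%), Ywhaz by 0.38 and Actb by 0.27. Actb did not pass without the duration term (adjusted p = 0.132) or on the 8 libraries alone (adjusted p = 0.0631). The median log2 fold changes of the lists for which none has been given were -0.15 for the IFNγ receptor group, -0.26 for chemokines, -0.07 for inhibitory ligands, 0.30 for the cell cycle, 0.08 for MAPK, 0.09 for sterol synthesis, -0.22 for p53, -0.20 for amino acid stress, -0.17 for cell death, -0.17 for NF-kB, 0.10 for melanocyte genes and 0.13 for reference genes.

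**Figure D5:**
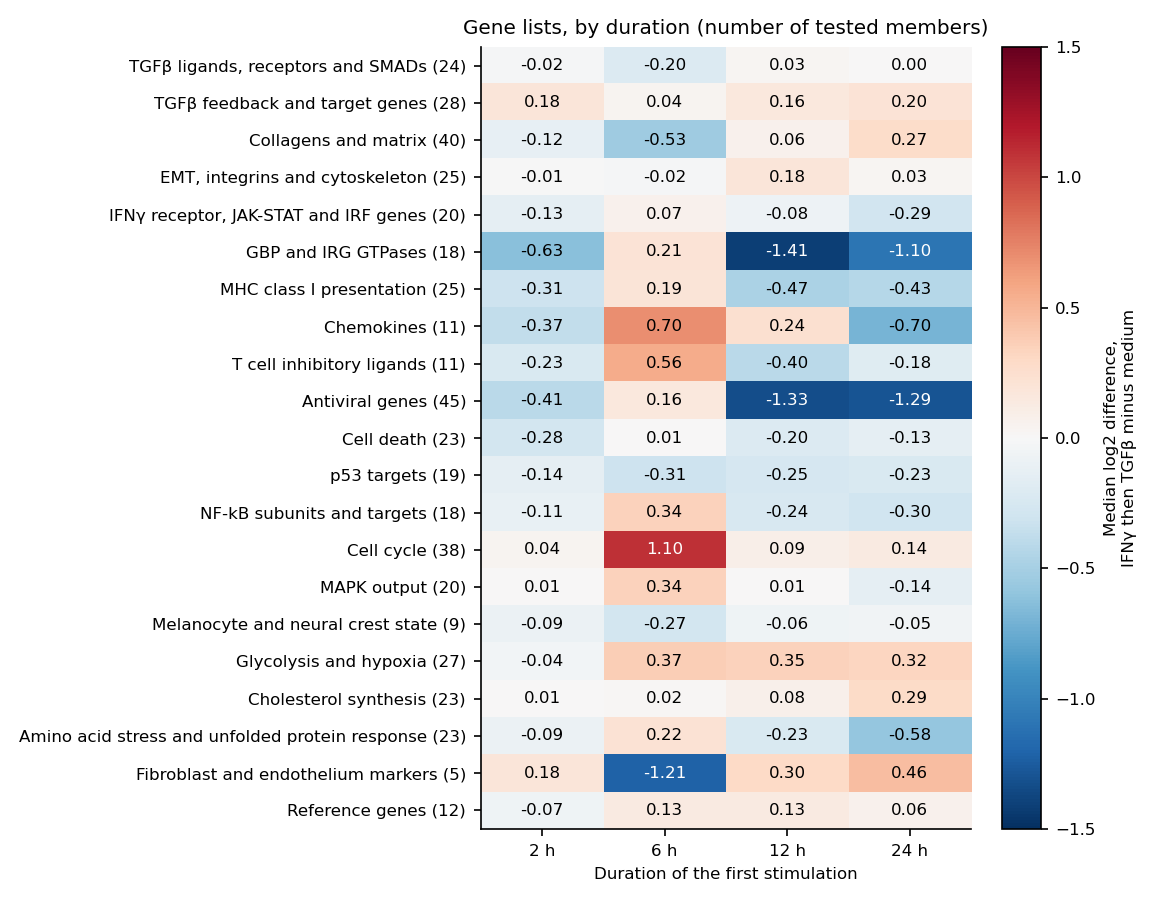
Median log2 difference between IFNγ then TGFβ and medium at each duration of the first step, for the gene lists with at least 5 tested members (their number in brackets). The antiviral and GTPase lists are lowest at 12 and 24 h, and the 6 h column differs from the others, at 1.10 for the cell cycle and -0.53 for the matrix.

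With the cytokines given the other way round, many genes lay at other levels, but the last step differed as well. Cells of TGFβ then IFNγ ended with 24 h in IFNγ. Cells of IFNγ then TGFβ had IFNγ only in the first step, for 2 to 24 h, and ended with 24 h in TGFβ. The differences thus also set cells ending in IFNγ against cells from which it had been washed out. The part of the order itself was not tested. Between IFNγ then TGFβ and TGFβ then IFNγ 4859 genes differed (32.5%), 2416 higher (16.2%) and 2443 lower (16.4%). PD-L1, Cd274, lay at 14.6, 17, 6.66 and 6.4 CPM after IFNγ and TGFβ, against 307, 315, 184 and 123 CPM after TGFβ and IFNγ, a difference of -4.40 in log2 with an SE of 0.439 (adjusted p = 1.23e-07). Of the 18 GTPases 17 were lower, with a median of -2.82, as were 8 of 11 chemokines and 12 of 20 genes of the IFNγ receptor group. The direction was the other one in the matrix list, where 21 of 40 genes were higher and 4 lower, among them Col3a1 by 1.78 and Mmp12 by 1.53 (25.5 ± 10.7 CPM after IFNγ and TGFβ, 8.75 ± 2.97 CPM after TGFβ and IFNγ). Fbln2 and Ctla2a did not pass (-0.27 and -0.23).

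Whether the net change grew with the length of the IFNγ pulse was tested as the difference between the slopes of the 2 groups on log2 duration. By edgeR 0 genes passed (0%), and 495 had an unadjusted p below 0.05. DESeq2 was not run on the slope. The slope of TGFβ alone, which had no pulse, was not set against that of medium, so the part of the pulse itself was not tested. Per doubling of the pulse the difference of slopes was 0.48 for Mmp12, -0.49 for Cd274, -0.50 for Gbp2 and -0.03 for Fbln2 on the log2 scale. The number was 1 without the 6 h library of IFNγ and TGFβ and 793 without the 2 h medium library, and 0 without any other single library of the 2 groups.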

How the data were processed

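The authors deposited 1 table of raw counts per gene for 29 mRNA libraries, 8 of which make up the comparison reported here. Per the labels' protocols the library kit was stranded. Per the submitters' processing notes reads were aligned with HISAT to GRCm38. No source used here names the counting tool or its strand setting. Overlapping genes and close paralogs are therefore uncertain. Totals ran from 17179530 to 23668015 counts per library, and p-values and intervals do not cover library preparation.

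Genes with too few counts were removed (filterByExpr, minimum count 10), libraries were scaled by TMM, and 1 quasi-likelihood model (edgeR 4.0.16, R 4.3.3, 18 residual degrees of freedom) was fitted to all 29 libraries in their 8 groups, which share 1 estimate of the spread, with duration as a block. A gene passed at an adjusted p (Benjamini-Hochberg, over all 14935 genes) below 0.05, and SEs were derived from the test's F. The slope model used log2 duration. CPM used the TMM-scaled totals. DESeq2 1.42.0, other scaling, filters and models, and leaving out single libraries were tried as alternatives. Libraries of the same duration deviated together between IFNγ then TGFβ and TGFβ alone (correlations 0.138 to 0.333) and IFNγ withdrawn (0.218 to 0.401). The comparison and the 23 gene lists were chosen with earlier results of these data known. Named genes are the 12 highest and 12 lowest as defined in the text, up to 5 in each direction for the other comparisons, fixed anchor genes and up to 3 called members of a list, and list members named beyond these were chosen after their values were seen. The scripts were tested on simulated data. Some genes that the rule names are not reported here.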

Additional observations from a re-analysis of the deposited data

Results flagged for a closer look

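In 32 of 202 groups of 4 libraries checked, 1 library stood apart from the other 3 by Dixon's criterion, which chance alone gives in about 5% of groups. The 6 h medium library accounted for 29 of them. It was the highest medium library, in CPM, for Cp (66), Bax (64), Prg4 (51), Cpm (185), Cyfip2 (45.6), Pde8b (19.8), Scara5 (39.2), Col3a1 (1461), Fn1 (10285), Slc7a11 (206), Ptgfr (254), Tgfbr3 (150), Gpnmb (275), Scd1 (459), Pde3a (27.5), Aqp5 (36.2), Mmp12 (4.8), Cd14 (76.4), Selenop (33.9) and Sod3 (51.8). It was the lowest for Cdc6 (8.2), Anxa5 (1260), Gbp2 (97.9), Nt5e (69.7), Egln3 (26.1), Tap1 (90.5), Irf8 (13.4), Ccbe1 (12) and Fbln2 (18.7). Among the libraries of IFNγ and TGFβ, Fasn (199) and Ccne2 (16.7) were highest after the 24 h pulse and Rpl17-ps4 (119) after the 2 h pulse.

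For 14 genes the change from medium differed between IFNγ then TGFβ and TGFβ alone by the direct test. For the 7 of them that the naming rule keeps, the differences in log2 were 0.66 for Notch1 and 0.33 for Arhgap31, and -0.62 for Stc2, -0.33 for Anxa5, -0.31 for Gnb1, -0.31 for Ndufb8 and -0.25 for Gnas.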

How the results depend on the processing

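Of 105 named genes 0 reversed under any alternative, but many calls were lost. Of the 86 that passed, 22 did not without the replicate block and 3 did not by DESeq2. With the replicate block and only the 8 libraries, 35 calls were lost among 103 genes. The largest loss without both libraries of 1 duration was 14 calls, for 24 h, and without 1 library 12 calls, for the 6 h library of IFNγ and TGFβ. The replicate block, duration of the first step, was kept as planned, although libraries of the same duration did not deviate together between IFNγ then TGFβ and medium (correlations -0.0152 to 0.0972). Without the replicate block 1553 genes passed in place of 3012, and 488 in place of 1084 against IFNγ withdrawn, and 1 in place of 14 against TGFβ alone. With the replicate block and only the 8 libraries compared, the numbers were 683, 3177 and 73. Against TGFβ alone, DESeq2 called 163 genes and the test without a filter on low counts 93, and without that filter the slope passed for 1 gene. Leaving out single libraries gave 0 to 45 genes against TGFβ alone, 686 to 1061 against IFNγ withdrawn and 0 to 793 for the slope. The cause was not tested. TMM against RLE scaling changed none of the 105 calls. The numbers for the net change (2032 to 3148 without 1 library or 1 duration) and against TGFβ then IFNγ (3611 to 5020) stayed within 1.5 times. Genes near the floor, such as Cxcl9, Ngfr and Cdh1, are limited by depth.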
